A study of Mus musculus with 2 samples.

Results

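The AP-1 transcription factor genes of the Fos and Jun families were examined in single-cell libraries of cells sorted as muscle stem cells, from uninjured and from injured muscle. The 8 members were Fos, Fosb, Fosl1, Fosl2, Jun, Junb, Jund and Atf3, chosen by symbol from the 32285 features of both count matrices. Barcodes entered with 500 or more genes detected and no more than 10% mitochondrial UMIs, and each member was summed over them. A UMI (unique molecular identifier) marks 1 captured transcript, and a barcode marks the transcripts of 1 droplet, usually 1 cell.

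AP-1 is a dimer of basic leucine zipper proteins that binds DNA. Fos proteins cannot pair with each other and need a Jun partner, whereas Jun proteins can also pair among themselves, and Atf3 is a relative that pairs with Jun proteins and often represses transcription. Fos, Fosb, Jun, Junb and Atf3 are textbook immediate-early genes: their transcripts are short-lived and appear within minutes of growth factors, stress, injury or dissociation of a tissue. Fosl1 (the gene of Fra-1) and Fosl2 (Fra-2) are usually induced later, and Jund is the most steadily expressed Jun gene.

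The cells of both libraries were from tibialis anterior muscles. The mice were 8 weeks old and had the genotype Pax7 CreERT2/+ ;Rosa26 mTmG/+, in which a tamoxifen-dependent Cre driven by Pax7, the gene of the satellite cell transcription factor, can switch a membrane reporter from red to green. The QSC library held quiescent satellite cells, the resident stem cells of muscle, sorted from uninjured muscle. The ASC library held activated satellite cells sorted on day 1.5 after an injection of cardiotoxin, which destroys fibres. Both muscles were digested with dispase and collagenase for 45 min before sorting. With a single library for each group, effects of group and of library preparation cannot be told apart. Replicate error is therefore unknown, and none of the differences was tested. Each library pooled the cells of several mice, and whether these mice received tamoxifen is not given in the sources used here.

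After filtering, 516 QSC barcodes with 1162091 UMIs and 1468 ASC barcodes with 8895815 UMIs remained, with medians of 2155 and 3502 UMIs. As a check of the labels, Pax7 had 160 CPM (UMIs scaled to a library total of 1000000) in QSCs and 18.4 CPM in ASCs. Myod1, a factor of activated cells, stood at 112 and 305 CPM, and Myog, a factor of differentiating cells, reached 613 CPM in ASCs with a log2 ratio of ASCs over QSCs of 4.62 (4.09 to 5.20). Part of both libraries was rich in fibre transcripts: 104 QSC barcodes (20.2%) and 956 ASC barcodes (65.1%) were contractile-high, meaning that 10 fibre genes gave at least 5% of their UMIs. Of the rest, 369 QSC and 405 ASC barcodes were contractile-low muscle, and 43 and 107 lay in clusters named after macrophages, neutrophils, fibroblasts or endothelium. Clusters that no list of cell type markers named, such as clusters 1 and 4, were counted as muscle. The class of contractile-low muscle is defined by what it leaves out, and different clusters held most of it: cluster 2 with 224 and cluster 5 with 78 of the QSC barcodes, and cluster 4 with 195, clusters 1 and 5 with 71 each and cluster 9 with 43 of the ASC barcodes. Doublets and free RNA were not removed, and 2 of the kept barcode sequences occurred in both libraries. Below, QSC and ASC name the library of a barcode and not its cell type.

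The stretches just before the start sites of 5 members are printed because these genes lead the difference between the libraries or, for Atf3, depart from it. They are the 150 bases before the RefSeq start, read 5′ to 3′ on the strand of the gene in GRCm38.p6. They lie at chr12:85473740-85473889 (+) for Fos, chr7:19310046-19310195 (-) for Fosb, chr4:95052223-95052372 (-) for Jun, chr8:84978749-84978898 (-) for Junb and chr1:191183334-191183483 (-) for Atf3. The Atf3 window lies inside the annotated gene, which spans 191170296 to 191218039. Its RefSeq start is therefore downstream of the annotated 5′ end, and its letters do not precede the whole gene. Capitals mark the letters TGACG on either strand, the core of the cAMP response element, and in Jun the letters TGACATCA, known as the site through which AP-1 acts on the Jun gene.
Fos: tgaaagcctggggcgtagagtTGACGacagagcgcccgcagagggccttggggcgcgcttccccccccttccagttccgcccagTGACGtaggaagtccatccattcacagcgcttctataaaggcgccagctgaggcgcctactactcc
Fosb: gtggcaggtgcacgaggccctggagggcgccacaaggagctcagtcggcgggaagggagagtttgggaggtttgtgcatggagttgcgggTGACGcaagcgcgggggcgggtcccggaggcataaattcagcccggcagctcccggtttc
Jun: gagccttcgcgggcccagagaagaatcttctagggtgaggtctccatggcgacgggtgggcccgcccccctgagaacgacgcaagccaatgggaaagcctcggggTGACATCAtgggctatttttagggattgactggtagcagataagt
Junb: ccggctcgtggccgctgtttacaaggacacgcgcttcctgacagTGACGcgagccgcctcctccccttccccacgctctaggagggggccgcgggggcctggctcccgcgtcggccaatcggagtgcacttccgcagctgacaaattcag
Atf3: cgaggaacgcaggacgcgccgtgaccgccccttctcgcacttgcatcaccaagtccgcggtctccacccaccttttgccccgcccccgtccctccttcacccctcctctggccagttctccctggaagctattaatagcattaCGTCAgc

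The core TGACG was found at 2 places in Fos, at -129 to -125 and -66 to -62 from the start, and at 1 place each in Fosb (-60 to -56), Junb (-106 to -102) and, on the other strand, Atf3 (-7 to -3). Of all 32851 promoters of this length in the table, 13.3% hold it. The 8 letters TGACATCA of Jun lie at -45 to -38, and 2.32% of all promoters hold them. The full element TGACGTCA (1.36% of all promoters, and overlapping TGACG), the AP-1 site TGAGTCA (2.84%) and the CArG box of serum response factor (0.916%) matched none of the 7 members found in the table (both strands). Fos also has the letters TATAAA at -33 to -28 on its own strand (4.84%). Such matches describe the letters of this window only. Fosl1 has no entry in the table, and the entry of Jund starts upstream of the annotated gene, so neither is shown, nor is Fosl2, whose window holds none of these letters.

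Together the members made up 2.13% of all QSC UMIs and 0.256% of all ASC UMIs. That is 24788 of the QSC UMIs, or 21330 CPM (95% interval 21066 to 21598), against 22772 of the ASC UMIs, or 2560 CPM (2527 to 2593). The ASC level was 8.33-fold lower, a log2 ratio of -3.06 (-3.08 to -3.03). All intervals cover counting error only. Of the 8 members, 6 were at least 2-fold lower in the ASC library, 1 (Fosl1) was at least 2-fold higher and 1 (Atf3) lay between. Of the 11189 genes with at least 20 UMIs over both libraries, 23.0% were at least 2-fold lower and 16.0% at least 2-fold higher. The median log2 ratio of the members was -2.85, beside -0.13 over all these genes. Across the 5730 genes with at least 20 UMIs in each library the median was -0.24, and relative to it the family had a log2 ratio of -2.82.

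Among the Fos genes, Fos (chromosome 12, 85473890 to 85477273 in GRCm38, the annotation of all positions here) was the most abundant member in both libraries, at 6718 CPM (6570 to 6869) in QSCs and 671 CPM (654 to 688) in ASCs. In QSCs it ranked 10th of all genes by UMIs, and in ASCs 239th. Its log2 ratio was -3.32 (-3.37 to -3.28). Fosb (chromosome 7, 19302696 to 19310051), a close relative of Fos, had the lowest ratio of the family: 2705 CPM (2611 to 2801) in QSCs against 126 CPM (119 to 134) in ASCs, 21.4-fold lower, with a log2 ratio of -4.42 (-4.52 to -4.32). Fosl2 (chromosome 5, 32135801 to 32157842) was a minor member, at 126 CPM (146 UMIs) and 32.5 CPM (289 UMIs), with a log2 ratio of -1.95 (-2.24 to -1.65). UMIs are counted at the 3′ end, once per captured transcript whatever its length, so levels of different genes can be set side by side as transcripts captured.

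Fosl1 (chromosome 19, 5447547 to 5455946) went the other way. It had 1 UMI in the QSC library, 0.861 CPM (0.022 to 4.79), and 326 UMIs in the ASC library, 36.6 CPM (32.8 to 40.8). The log2 ratio of 5.41 has a wide interval, 2.92 to 10.72, because it rests on that 1 UMI. In QSCs Fosl1 was 0.009% of the Fos-family UMIs, and in ASCs 4.23% (3.79 to 4.70). Fosl1 overlaps Ccdc85b on the opposite strand, a gene at 75.7 and 89.8 CPM, and how strand was handled in counting is not given in the sources used here. In the QSC library Ccdc85b had 88 UMIs, so no more than the 1 Fosl1 UMI can have been counted from it there. In the ASC library, where Ccdc85b had 799 UMIs, whether UMIs of one gene were counted for the other could not be checked directly.

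The 3 Jun genes were close to each other in both libraries. Junb (chromosome 8, 84974484 to 84978718), which often opposes Jun in the control of growth, stood at 4259 CPM (4141 to 4379) and 596 CPM (580 to 612), a log2 ratio of -2.84 (-2.89 to -2.78). Jund (chromosome 8, 70698949 to 70700616) stood at 3721 CPM (3611 to 3833) and 512 CPM (497 to 527), a log2 ratio of -2.86 (-2.92 to -2.80). Jun (chromosome 4, 95049034 to 95052222) stood at 3573 CPM (3465 to 3683) and 459 CPM (445 to 473), a log2 ratio of -2.96 (-3.02 to -2.90). In QSCs the intervals of Jund and Jun overlapped and Junb lay above both. In ASCs the order was Junb, Jund and Jun, with no overlap of the intervals. These genes also overlap others on the opposite strand, but Junos (beside Jun) and Gm11175 (beside Jund) had at most 29 UMIs in a library, and Prdx2 (beside Junb) was at 219 and 321 CPM.

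Atf3 (chromosome 1, 191170296 to 191218039) differed least over all barcodes, at 229 CPM (202 to 258) in QSCs and 127 CPM (120 to 135) in ASCs, a log2 ratio of -0.85 (-1.04 to -0.65). As shown next, this value joins a lower level in one kind of barcode with a higher level in another.

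**Figure D1:**
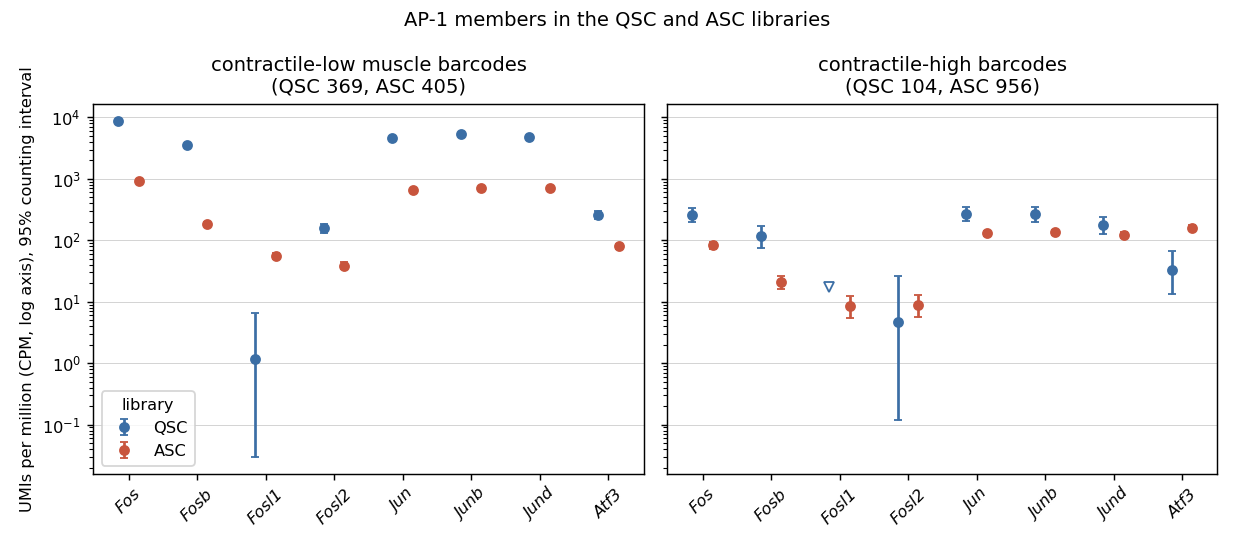
Level of each AP-1 member in CPM (log axis) in contractile-low muscle barcodes (left) and contractile-high barcodes (right) of the QSC (blue) and ASC (red) libraries. Points are the summed counts of a library, bars are exact Poisson 95% intervals (counting error only), and the open triangle is the upper limit for Fosl1, which had 0 UMIs there. On the left 7 members lie lower in ASCs and Fosl1 higher, and on the right the Fos and Jun genes lie at or below 270 CPM in both libraries while Atf3 is higher in ASCs.

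Within contractile-low muscle the difference was as large as over all barcodes. The family stood at 27574 CPM (27222 to 27930) in QSCs and 3343 CPM (3293 to 3393) in ASCs, a log2 ratio of -3.04 (-3.07 to -3.02). Of the 8 members, 7 were at least 2-fold lower, beside 22.4% of the 9927 genes with at least 20 UMIs there, and 1 was at least 2-fold higher, beside 18.7%. Fosb again had the lowest log2 ratio, at -4.27 (-4.38 to -4.17), followed by Fos at -3.26. Junb, Jun and Jund lay between -2.93 and -2.77. Atf3, at 259 CPM (226 to 296) in QSCs and 80.5 CPM (73.0 to 88.6) in ASCs, had a log2 ratio of -1.68 (-1.92 to -1.44). Fosl1 rested on 1 and 293 UMIs, or 1.18 CPM (0.030 to 6.59) against 56.2 CPM (49.9 to 63.0).

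Contractile-high barcodes held little AP-1 in either library. The family stood at 1128 CPM (991 to 1280) in QSCs and 666 CPM (638 to 696) in ASCs, a log2 ratio of -0.76 (-0.95 to -0.56). Here 3 of the 8 members were at least 2-fold lower (8.71% of 6569 genes) and 1 was at least 2-fold higher (19.0%). The 3 were Fosb at -2.50 (-3.19 to -1.77), Fos at -1.66 (-2.09 to -1.22) and Jun at -1.06 (-1.46 to -0.63). Junb stood at 266 and 135 CPM, and Jund at 177 and 121 CPM. Fosl2, with 1 and 27 UMIs, and Fosl1, with 0 and 26 UMIs, were too sparse for a direction at this depth.

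Atf3 was the member that was higher in contractile-high ASC barcodes. It had 7 UMIs in QSCs, 32.6 CPM (13.1 to 67.2), and 496 UMIs in ASCs, 160 CPM (146 to 174), a log2 ratio of 2.29 (1.24 to 3.61). Of the 496 UMIs, 391 came from the 228 contractile-high barcodes of cluster 3, a muscle cluster led by Mybph, Xirp1, Ankrd1 and Csrp3, genes known to respond to load and damage in muscle. Atf3 stood at 500 CPM (452 to 553) there, in 107 of the 228 barcodes, with at most 17 UMIs in 1 barcode. Without cluster 3 the contractile-high ASC barcodes held Atf3 at 45.1 CPM (36.9 to 54.6), and the log2 ratio was 0.47 (-0.63 to 1.82), within counting error of no difference. This restriction was chosen after the values were seen. Only 1 QSC barcode lay in cluster 3, so Atf3 cannot be compared between the libraries within it.

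**Figure D2:**
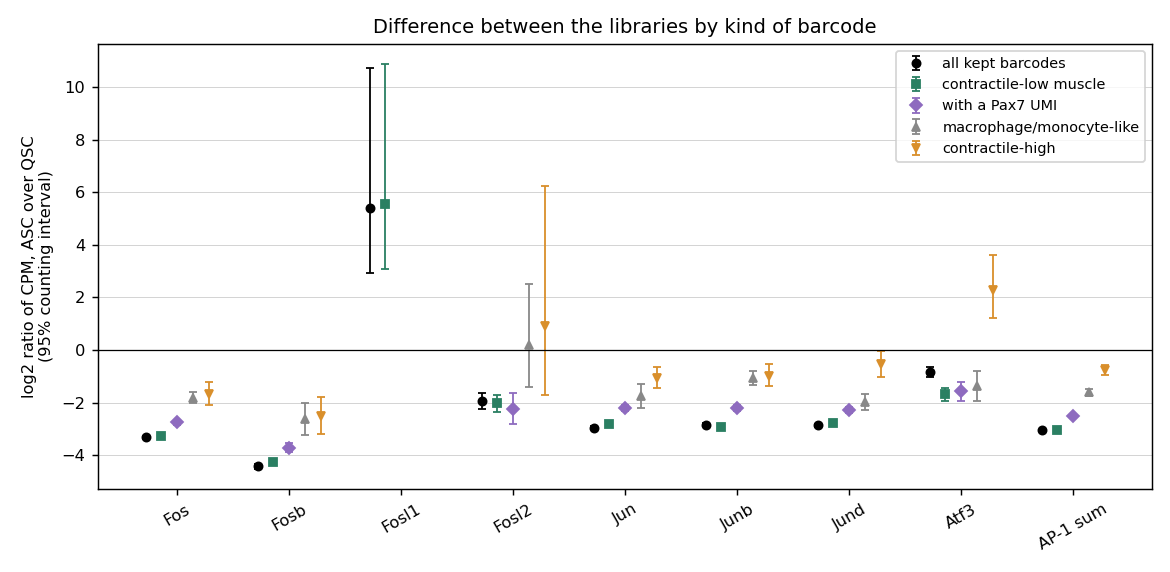
Log2 ratio of CPM, ASC over QSC, for each member and their sum, in all kept barcodes and in 4 kinds of barcode (see key), with exact 95% counting intervals. Ratios are drawn only where both libraries had at least 1 UMI. All kinds lie below 0 for Fos, Fosb, Jun, Junb and Jund, Fosl1 lies above 0 with a wide interval, and Atf3 lies below 0 except in contractile-high barcodes.

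Barcodes with at least 1 Pax7 UMI gave a smaller difference. They numbered 125 among QSCs and 109 among ASCs. The family stood at 25613 CPM (25056 to 26178) in QSCs and 4537 CPM (4424 to 4651) in ASCs, a log2 ratio of -2.50 (-2.55 to -2.45). Fosl1 had 0 UMIs in these QSCs and 83 UMIs, or 60.6 CPM (48.3 to 75.1), in these ASCs, at least 6.35-fold higher against a floor of 3 counts over the QSC barcodes.

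Outside muscle the level was also lower in ASCs beyond counting error. In the macrophage/monocyte-like cluster, with 16 QSC and 86 ASC barcodes, the family stood at 17385 CPM (15985 to 18876) and 5701 CPM (5503 to 5905), a log2 ratio of -1.61 (-1.74 to -1.48). Fos was at -1.81 (-2.03 to -1.58), Jund at -1.98 (-2.28 to -1.67), Jun at -1.77 (-2.21 to -1.29) and Junb at -1.07 (-1.33 to -0.80). In the endothelial-like cluster, 10 QSC and 5 ASC barcodes held 136 and 64 UMIs of the family, a log2 ratio of -1.30 (-1.75 to -0.86). Both are less negative than the -3.04 of contractile-low muscle, but with 1 library per group this difference was not tested.

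Removing barcodes above 1% mitochondrial UMIs, the limit stated in the study's methods, gives another picture, and removes most contractile-low barcodes. It leaves 86 QSC barcodes, of which 85 are contractile-high, and 948 ASC barcodes, of which 879 are. Among these the family stood at 807 CPM (145 UMIs) in QSCs and 878 CPM (2974 UMIs) in ASCs, a log2 ratio of 0.12 (-0.12 to 0.37). Atf3 was higher in ASCs under this limit, at 2.45 (1.22 to 4.08) on 5 QSC UMIs, Fosb and Fos were lower, at -1.38 (-2.40 to -0.19) and -0.61 (-1.10 to -0.08), and Jun, Junb and Jund did not differ beyond counting error. With a limit of 5%, which keeps 213 contractile-low QSC barcodes, the log2 ratio of the family was -2.86.

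CPM is a share of all UMIs, and ASC barcodes of the same kind held more UMIs. A contractile-low muscle barcode had on average 2292 UMIs if a QSC and 12877 UMIs if an ASC, 5.62-fold more. Its average number of AP-1 UMIs was 63.2 in QSCs and 43.0 in ASCs, 1.47-fold lower, against 8.25-fold lower on the CPM scale. By gene, the mean per contractile-low barcode was 1.71-fold lower for Fos in ASCs (11.7 UMIs there), 8.27 and 2.40 UMIs for Fosb, 10.6 and 8.44 for Jun, 12.5 and 9.21 for Junb, and 11.0 and 9.03 for Jund. Atf3 was higher per barcode in ASCs, at 0.593 and 1.04 UMIs, and so was Fosl2, at 0.360 and 0.499. Barcodes with a Pax7 UMI had 64.4 and 57.0 AP-1 UMIs, and macrophage/monocyte-like barcodes 35.5 and 36.2. Fewer AP-1 transcripts per cell and more of all other transcripts cannot be told apart on the CPM scale, and UMIs per barcode also depend on how deeply each library was sequenced.

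Depth moved with the AP-1 share inside the ASC library too. Its contractile-low muscle barcodes were split by UMIs into 3 sets of 135. AP-1 took 1.10% of UMIs in the shallowest set (median 3813 UMIs), 0.571% in the middle set and 0.145% in the deepest (median 24645 UMIs), whereas the mean number of AP-1 UMIs per barcode, at 40.0, 51.4 and 37.8, had no such order. Fosl1 was at 48.9, 50.3 and 59.3 CPM in these sets. In the QSC library the AP-1 shares of 3 sets of 123 were 2.93%, 2.87% and 2.57%, at medians from 1721 to 2795 UMIs. All 3 lay above the 3 ASC shares, but the sets were not of like depth. The deepest QSC set had a median of 2795 UMIs and the shallowest ASC set one of 3813 UMIs. Split by mitochondrial share instead, the ASC barcodes gave 0.178%, 0.419% and 0.581% from the lowest to the highest set, and the QSC barcodes 2.63%, 2.88% and 2.76%. What part depth and mitochondrial share have in the difference between the libraries was not tested.

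Single barcodes of the contractile-low class showed the same separation. AP-1 took a median of 2.61% of the UMIs of a QSC barcode, with quartiles of 1.80% and 3.48% and a range from 0.072% to 8.64%. In ASC barcodes the median was 0.292%, with quartiles of 0.087% and 0.769% and a highest value of 5.33%. AP-1 was above 2% in 256 of 369 QSC barcodes (69.4%) and in 31 of 405 ASC barcodes (7.65%), so the libraries overlapped. Contractile-high barcodes had medians of 0.077% in QSCs and 0.035% in ASCs.

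**Figure D3:**
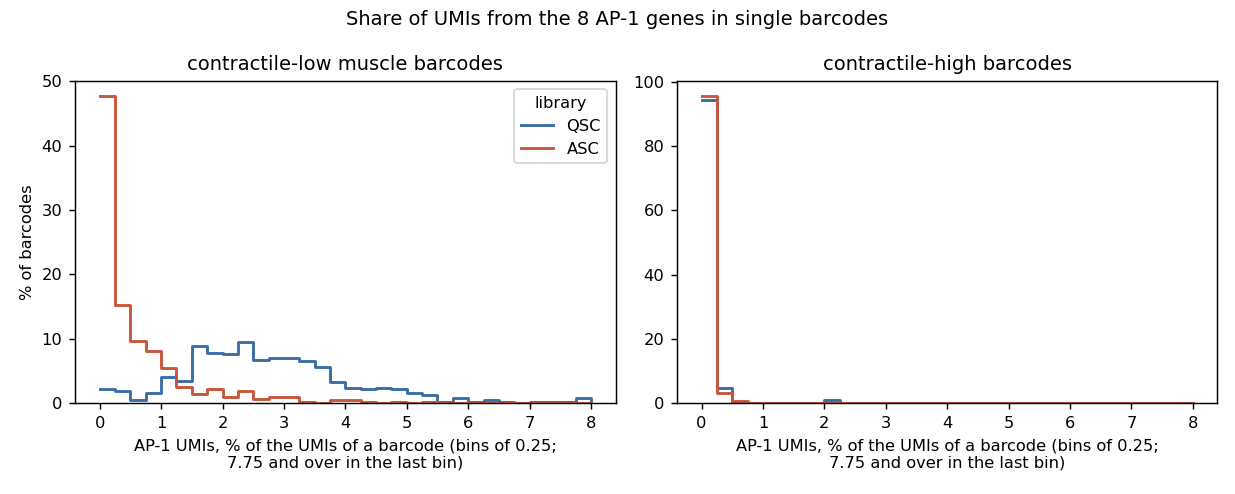
Percent of a barcode's UMIs that came from the 8 AP-1 genes (x axis, bins of 0.25) against the percent of barcodes (y axis), for contractile-low muscle barcodes (left) and contractile-high barcodes (right) of the QSC (blue) and ASC (red) libraries. On the left the QSC barcodes spread around a median of 2.61% and the ASC barcodes pile up near 0 with a tail, and on the right both libraries lie near 0.

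At an equal depth of 1200 UMIs, 94.0% of 366 contractile-low QSC barcodes held a Fos UMI (95% interval 91.0 to 96.2) and 168 of 400 ASC barcodes did (37.1% to 47.0%). Without thinning the shares were 97.6% and 72.3%. Junb was found in 96.4% and 49.0% of the thinned barcodes, Jund in 93.7% and 52.8%, Jun in 91.8% and 46.0%, and Fosb in 89.1% and 28.7%. Thinning left out 3 QSC and 5 ASC barcodes. No cell type in these libraries is known to lack these genes, so the shares have no background to be read against. Fosl1 was found in 0.273% (0.007 to 1.51) of the thinned QSC and 5.25% (3.28 to 7.91) of the thinned ASC barcodes. ASC macrophage/monocyte-like barcodes gave 2.38% (0.290 to 8.34), which overlaps the ASC muscle share. Their median depth was 6322 UMIs, beside 8484 for the ASC muscle barcodes. On the CPM scale the 2 did not overlap, at 7.32 CPM (1.99 to 18.7) in macrophages and 56.2 CPM (49.9 to 63.0) in contractile-low muscle.

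The make-up of the family does not depend on library scaling, and it also differed. The Fos genes gave 44.8% of the AP-1 UMIs in QSCs (44.1 to 45.4) and 33.8% in ASCs (33.2 to 34.5). The Jun genes gave 54.2% (53.5 to 54.8) and 61.2% (60.6 to 61.8). Fosb alone was 12.7% and 4.94%, and Atf3 stood at 1.07% and 4.97%. Within contractile-low muscle the Fos genes gave 45.2% and 35.6%, and Atf3 0.939% and 2.41%. In contractile-high ASC barcodes Atf3 made up 23.9% of the AP-1 UMIs (22.1 to 25.8), against 2.89% (1.17 to 5.87) in contractile-high QSC barcodes.

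**Figure D4:**
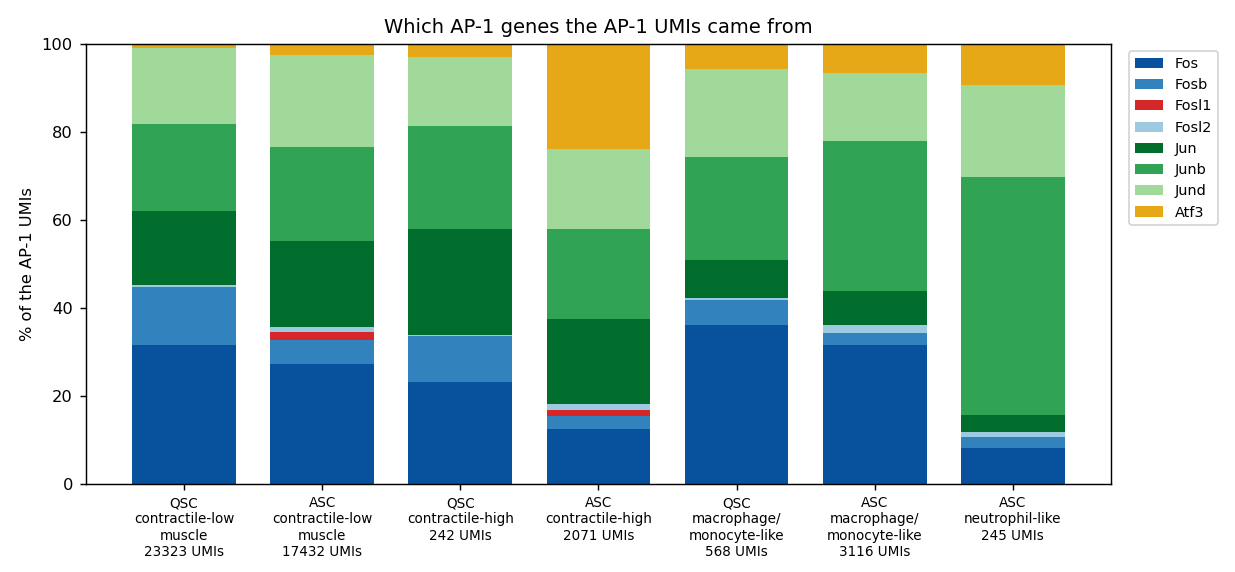
Percent of the AP-1 UMIs (y axis) that came from each of the 8 genes (colours) in 7 sets of barcodes (x axis, with library, kind of barcode and number of AP-1 UMIs). Fosb is a smaller part in ASCs than in QSCs, Atf3 stands out in contractile-high ASC barcodes at 23.9%, and Junb in neutrophil-like ASC barcodes at 54.3%.

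Clusters made without the members and other early-response genes showed where each member was most abundant. Among the ASC muscle clusters, cluster 4 had the highest family level, at 7437 CPM (7299 to 7578), and held 48.2% of the library's AP-1 UMIs. Its leading genes were Bgn, C1qtnf3, Spats2l and Igfbp7, and lower among the top 10 were Fgfr4 and Col3a1. Col3a1 is on the fibroblast/FAP marker list, but only 2 of the 6 markers on that list counted as higher in cluster 4. A name needed 3, and Pdgfra of the same list was at 0 in the whole ASC library. No marker list named cluster 4, so it counts as muscle by default, and its identity was not tested. The Myog- and Mymk-led cluster 9 stood at 3496 CPM (3346 to 3650), and cluster 5, led by the replication genes Rrm2 and Pclaf, at 909 CPM (870 to 949) with a median of 26200 UMIs. In the QSC library clusters 0, 2, 4 and 5 stood between 23002 and 29276 CPM, while the contractile-high cluster 8 stood at 1105 CPM (963 to 1263). Cluster 0 bears a fibre name because of its ASC barcodes, and 40 of its 43 QSC barcodes were contractile-low. The activated name and leading genes of cluster 5 were found over both libraries together. Its 78 QSC barcodes had a median of 1802.5 UMIs. In the whole contractile-low QSC class, 7 barcodes held a UMI of the proliferation genes Top2a or Mki67.

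Fosl1 and Atf3 were spread differently over the ASC clusters, here those with at least 15 ASC barcodes. Cluster 5 held Fosl1 at 63.7 CPM (53.7 to 74.9), cluster 2 at 56.2 CPM (33.3 to 88.9), cluster 1 at 55.4 CPM (42.8 to 70.5) and cluster 4 at 46.8 CPM (36.4 to 59.2), and these intervals overlap. It stood at 5.09 CPM (1.05 to 14.9) in cluster 9 and had no UMI in the 24 neutrophil-like barcodes, a depth that allows up to 80.2 CPM. In cluster 5, where the other members were low, Fosl1 was 22.7% of the Fos-family UMIs. Its share was 12.4% in cluster 1, 11.7% in cluster 3 (11 Fosl1 UMIs) and 12.5% in cluster 6 (3 Fosl1 UMIs), where the family was low too. It was 4.74% in cluster 2, 4.49% in cluster 0, 1.72% in cluster 4 and 0.393% in cluster 9. Atf3 had 57 UMIs in cluster 5, an interval of 19.0 to 32.4 CPM, and among these ASC clusters was highest in clusters 3, at 500 CPM, and 10, at 500 CPM (317 to 750). The 5 endothelial-like ASC barcodes, too few to enter, had Atf3 at 731 CPM (351 to 1345), on 10 UMIs of 1 barcode. The 16 QSC barcodes of the macrophage/monocyte-like cluster 7 held more Atf3, at 979 CPM (670 to 1383), beside 375 CPM (325 to 430) in its ASC barcodes. Junb was highest among ASC clusters in the neutrophil-like cluster 10, at 2892 CPM (2421 to 3427), and in the macrophage/monocyte-like cluster 7, at 1938 CPM (1823 to 2058).

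**Figure D5:**
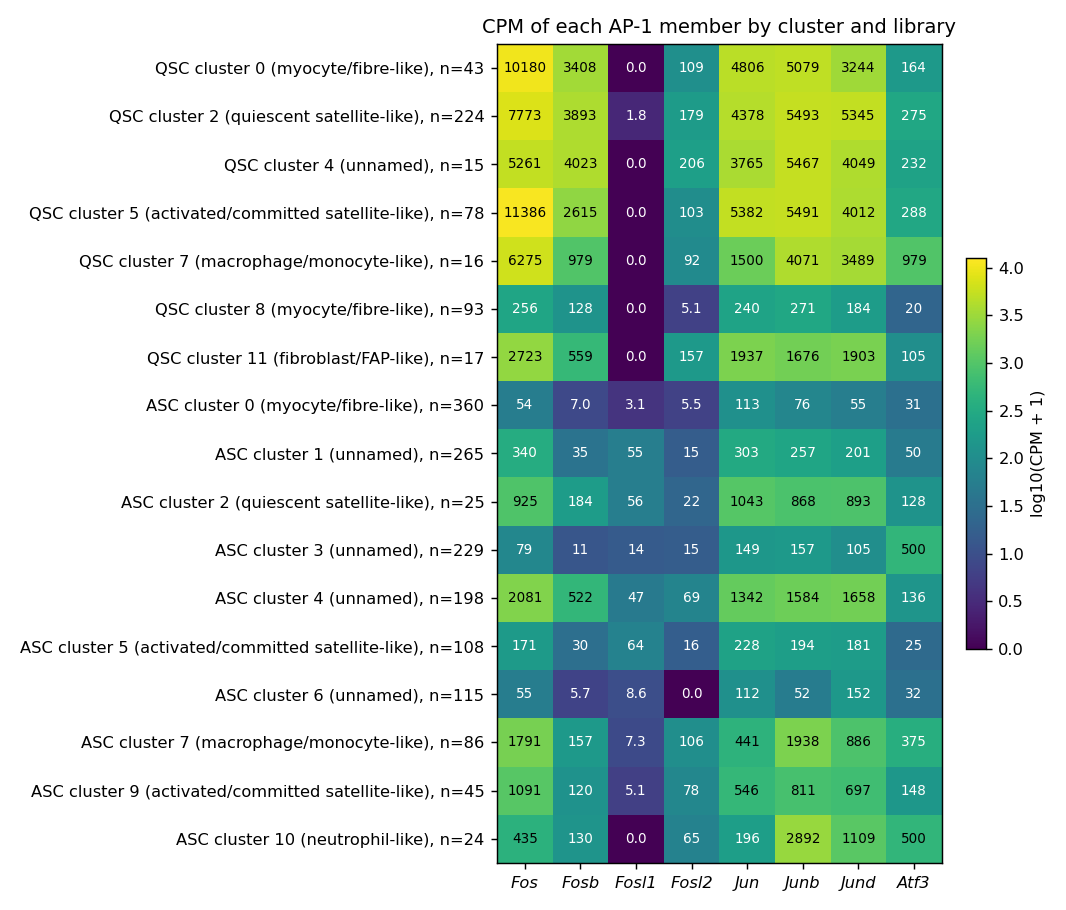
CPM of each AP-1 member (columns, value printed in each cell) in every cluster with at least 15 barcodes in a library (rows, with the cluster name and number of barcodes), coloured by log10(CPM + 1). QSC clusters other than the contractile-high cluster 8 are high for 5 members, Fosl1 is above 40 CPM only in ASC clusters 1, 2, 4 and 5, and Atf3 is highest in QSC cluster 7 at 979 CPM, followed by ASC clusters 3 and 10 at 500 CPM. The fibre name of cluster 0 describes its ASC barcodes, and the activated name of cluster 5 was given over both libraries together.

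Within ASC contractile-low muscle, levels differed with the presence of differentiation and proliferation transcripts. The 155 barcodes without a UMI of Myog or of the proliferation genes Top2a and Mki67 had the family at 7727 CPM (7556 to 7901), the 129 barcodes with Myog but neither proliferation gene at 3654 CPM (3557 to 3753) and the 121 barcodes with Top2a or Mki67 at 1573 CPM (1526 to 1621). Fosl1 stood at 71.8 CPM (56.2 to 90.4), 26.5 CPM (18.9 to 36.3) and 66.3 CPM (57.1 to 76.7) in the same order. The split rests on single UMIs, so deeper barcodes enter the last 2 sets more easily. The corresponding QSC barcodes without these UMIs, 360 in number, had the family at 27563 CPM.

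Across the thinned contractile-low barcodes, Fos varied most closely with Jun and Junb. Pearson's r on ln(UMIs + 1) was 0.45 for Fos with Jun and 0.38 for Fos with Junb over 366 QSC barcodes, and 0.71 and 0.63 over 400 ASC barcodes. Fosb went most closely with Jund, at 0.37 in QSCs and 0.53 in ASCs, while Fos with Jund was at -0.06 in QSCs and 0.35 in ASCs. Barcodes of 1 library share its preparation and are not replicates, so these values only describe them. Among the 10 genes most like the AP-1 sum, out of 1383 candidates in QSC barcodes, were Socs3 (r = 0.41), Egr1 (0.31), Ier2, Ppp1r15a, Btg2, Cebpb, Zfp36, Klf2 and Id1 (0.19).

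The other gene lists were read against the same background of 23.0% lower and 16.0% higher genes and a median log2 ratio of -0.13. Over all barcodes, other immediate-early genes resembled the family most: 15 of 20 were at least 2-fold lower and 0 higher, with a median of -1.68. This likeness was not seen in contractile-high barcodes, where 5 of 15 were lower and 4 higher, with a median of 0.27. There the members had a median of -0.77 and all genes tested 0.14, with 8.71% of genes lower and 19.0% higher. The values that follow are for all barcodes. Egr1, a zinc finger factor, stood at 1437 and 135 CPM, a log2 ratio of -3.41 (-3.52 to -3.30). The nuclear receptor gene Nr4a1 was at -3.14, Klf4 at -2.85, Btg2 at -2.62, the cytokine signalling inhibitor gene Socs3 at -2.46, Ccn1 at -2.09 and Ier2 at -1.83.

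Of the 21 partners and relatives with a basic leucine zipper, 19 had at least 20 UMIs, of which 10 were at least 2-fold lower and 1 higher (median -1.05). The small Maf genes Maff and Mafk were at -3.43 (-3.63 to -3.24) and -3.17 (-3.42 to -2.91), Cebpb at -2.38, Cebpd at -2.37 and Nfe2l2, the gene of the oxidative stress factor, at -1.04. Jdp2, a repressor that pairs with Jun proteins, had 33 and 24 UMIs, a log2 ratio of -3.40 (-4.22 to -2.59). Batf, known from lymphocytes, had 1 and 23 UMIs, a log2 ratio of 1.59 (-1.04 to 6.95).

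The kinases and factors upstream of AP-1 did not share this pattern: 4 of 20 were lower and 3 higher by at least 2-fold, with a median of -0.26. The MAP kinase kinase genes Map2k2 and Map2k3 were at 1.13 (0.91 to 1.36) and 1.11 (0.80 to 1.43). Of 13 brakes, which remove phosphate from MAP kinases or destabilise AU-rich transcripts, 4 were lower and 3 higher (median -0.45). The 4 lower ones were the mRNA-destabilising genes Zfp36l1 at -2.86, Zfp36 at -2.44 and Zfp36l2 at -2.31, and the phosphatase gene Dusp1 at -1.49. The 3 higher ones were below the 100 CPM needed to be named.

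Genes known as AP-1 targets were split. Of 18 with at least 20 UMIs, 6 were at least 2-fold lower and 7 higher, with a median of 0.76. The 6 lower ones were below the 100 CPM needed to be named, so all targets named here are higher ones. For Spp1 (osteopontin) the counts were 1 in QSCs and 3130 in ASCs (log2 ratio 8.68, interval 6.20 to 13.98), and for Timp1, an inhibitor of matrix proteases, 3 and 1295, at 5.82 (4.27 to 8.10). The hyaluronan receptor gene Cd44 was at 2.80 (2.26 to 3.39), Vim at 2.70 (2.56 to 2.85) and Ccnd1, the gene of cyclin D1, at 1.44 (1.10 to 1.81). Of the heat-shock genes, which also respond to stress, 5 of 12 were at least 2-fold higher and 2 lower (median 0.90). Hspb1 was at 3.15, Hspe1 at 1.88, Hspd1 at 1.28 and Hsp90aa1 at 1.28, whereas Dnajb1 was at -1.42 and Hspa5 at -1.21. The Hspb1 value mixes kinds of barcode: 18702 of its 23234 ASC UMIs came from contractile-high barcodes. Its log2 ratio was 4.09 (3.76 to 4.43) there and 1.44 (1.26 to 1.63) in contractile-low muscle.

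In contractile-low muscle, too, the early genes and relatives were mostly lower. All genes tested there had 22.4% lower, 18.7% higher and a median of -0.12. Of the immediate-early genes 17 of 20 were at least 2-fold lower (median -1.42), of the relatives 13 of 18 (-1.43), of the AP-1 targets 4 of 16, with 6 higher (0.49), and of the heat-shock genes 2 of 12, with 7 higher (1.13). The brakes had 5 of 13 lower and 3 higher, with a median of 0.31 in place of -0.45 over all barcodes. The kinases and factors upstream had 5 of 18 lower and 3 higher (-0.11). Markers of other cell types were present in this class. The 12 macrophage/monocyte markers summed to 83.9 CPM in QSCs, where Adgre1, Ly6c2 and Plac8 were at 0, and to 155 CPM in ASCs. The erythroid markers summed to 131 CPM in QSCs and 1704 CPM in ASCs, and those of smooth muscle and pericytes to 303 and 1219 CPM. Other lists were lower in ASCs, as most AP-1 members were: the fibroblast/FAP markers summed to 938 and 444 CPM (Pdgfra at 0 in ASCs), the dendritic markers to 121 and 16.7 CPM, and the endothelial markers to 54.4 CPM in QSCs and less in ASCs (Kdr at 0 in QSCs, Cdh5 at 0 in ASCs). Their part in the AP-1 difference was not tested.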

How the data were processed

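Droplet 3′ libraries (v2 chemistry) of sorted QSCs and ASCs were analysed. The deposited counts are whole UMI numbers per gene and barcode, made by the authors with Cell Ranger 6.0.2 per the file headers (the submitters' processing notes name 7.1.0 and mm10). Barcodes with at least 500 genes and at most 10% mitochondrial UMIs were kept, in place of the study's 1% limit. UMIs were summed per library and scaled to CPM (exact Poisson 95% intervals). Ratios had exact conditional binomial intervals and shares Clopper-Pearson intervals. A count of 0 was set to 3 for bounds. List medians added 0.5 to each count. Clustering used Seurat 5.3.0 (R 4.3.3) on 1046 variable genes, members and early-response genes left out, with UMI number and mitochondrial share regressed, 10 components and a resolution of 0.6. Markers named clusters, by a rule chosen with the cluster values known. TMM factors came from edgeR 4.0.16. Gene positions come from GENCODE M21, promoters from RefSeq (7 of 8 members matched). Named genes are the members and, per list, up to 6 with at least 100 CPM and 2-fold, plus Egr1, Ier2, Dusp1, Zfp36, Maff, Batf and Jdp2. The ratio functions were tested on simulated data. Members and lists were chosen with earlier results of these data known. One gene of the list most like the AP-1 sum is not reported here.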

Additional observations from a re-analysis of the deposited data

Results flagged for a closer look

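Barcodes outside the filters also held AP-1 transcripts, above what a count of 0 would allow. In the QSC library the 4 barcodes with at least 500 genes and over 10% mitochondrial UMIs had the family at 13822 CPM (154 UMIs), and the 246 barcodes under 500 genes at 2691 CPM (465 UMIs). In the ASC library the corresponding 19 and 163 barcodes had it at 1417 CPM (64 UMIs) and 1229 CPM (146 UMIs). Atf3 moved in opposite directions in the 2 kinds of muscle barcode, with a log2 ratio of 2.29 in contractile-high and -1.68 in contractile-low barcodes. With 1 library per group this difference was not tested.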

How the results depend on the processing

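The log2 ratio of the summed family over all barcodes was -3.06. It stayed negative under all alternatives but the 1% mitochondrial limit, which gave 0.12, and under that limit 1 member, not 6, was at least 2-fold lower, beside 8.32% of all genes in place of 23.0%. It was -0.76 in contractile-high barcodes (3 members at least 2-fold lower), -1.63 as UMIs per barcode without scaling (chosen after seeing the data), -2.50 in barcodes with a Pax7 UMI, -2.75 with TMM scaling, -2.82 with median-ratio scaling, -2.86 with a 5% mitochondrial limit, -3.02 after thinning to 1200 UMIs (which keeps the share of a barcode on average) and -3.25 without the non-muscle clusters. In contractile-low muscle the value of -3.04 became -2.95 with a contractile limit of 2% and -0.55 as UMIs per barcode. Single members turned sign as follows: Junb 0.10, Jund 0.43, Fosl2 0.52 and Atf3 2.45 under the 1% limit, Fosl2 0.90 and Atf3 2.29 in contractile-high barcodes, and Atf3 0.58 as UMIs per barcode. Fosl1 stayed higher in ASCs wherever a ratio could be formed (3.76 to 6.84). The cause of these changes was not tested, except that the 1% limit left 1 contractile-low QSC barcode. A QSC floor of 3 counts is 2.58 CPM, so absence of Fosl1 in QSCs cannot be shown. No paired analysis was possible because each group had 1 library.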
